A study of Mus musculus with 18 samples.

Results

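The collagen genes are the genes whose GENCODE M21 symbol has the form Col, a type number, the letter a and a chain number, and they were found by matching the Ensembl identifiers of the deposited tables to those symbols. There were 44 of them among 22298 genes, and all 44 had reads in at least 1 library. They were grouped as 11 fibrillar, 8 basement membrane, 9 network and 16 other collagens. RNA came from C57BL/6 mice aged 12 weeks, and 3 tissues were sampled. They were the epididymal fat depot, called eWAT, the inguinal depot under the skin, called iWAT, and the liver. KO mice were Bckdha f/f;RIP-Cre and WT mice were Bckdha f/f, so both genotypes carried the floxed Bckdha allele and only KO carried the Cre transgene. RIP-Cre is commonly used to delete floxed genes in insulin-producing beta cells, with activity also known in some neurons, so fat and liver are not the tissues it targets. No group carried RIP-Cre alone, so a KO to WT difference also holds any effect of the transgene.

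Each tissue held 3 KO and 3 WT libraries, 18 in all, with total expected counts from 16796147 to 28039742. Nothing in the labels states that each library is its own mouse, and a p-value here therefore speaks of variation among libraries, part of which could be technical. Bckdha transcripts were present in every KO library, at 69.3 to 91.9 FPKM in eWAT, 68.6 to 131.0 FPKM in iWAT and 101 to 133 FPKM in liver, which checks nothing about a deletion in beta cells. Several fat libraries stood apart in tissue content. eWAT WT replicate 2 held 43941 CPM of Gpx5, an epididymal epithelium gene, and 17.1 CPM of Adipoq, the adipocyte hormone, against 961 to 3883 CPM of Adipoq in the other 5 eWAT libraries. eWAT KO replicates 1 and 3 held 1409 and 1750.3 CPM of the epididymal gene Crisp1, which was at 1.08 CPM in KO replicate 2 and at 2.06, 1084.5 and 1.59 CPM in WT. The same KO libraries held 1274.5 and 1358 CPM of Myh11, the smooth muscle myosin, against 48.4 CPM in KO replicate 2. iWAT WT replicate 2 held 502 CPM over 5 skeletal muscle genes, against 1.73 to 37.7 CPM in the other 5 iWAT libraries, and 1.27 CPM of the B cell gene Cd79a, against 149.9 to 443 CPM. Liver WT replicate 2 held 40.7 CPM over 6 endothelial markers, against 113 to 141 CPM in the other 5 livers. The main folds and counts that include these libraries are also given without them.

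Collagens are proteins of 3 chains wound into a triple helix, most of them secreted and some transmembrane. Fibrillar collagens build the load-bearing fibres of connective tissue and are made mostly by fibroblasts and their relatives. Type IV collagen, with types XV and XVIII, builds the basement membrane, the sheet that surrounds each adipocyte and lines blood vessels. Type VI collagen forms a fine filament network around cells and is abundant in fat. Fat deposits more collagen as it expands, and in liver scar collagen comes from activated stellate cells.

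The promoter windows of 3 genes on which the results turn are shown. They are those of a fibrillar homotrimer and a type I chain, both lower in KO iWAT, and that of the collagen with most reads in the liver libraries. The sequences are from RefSeq on GRCm38.p6, on the strand of the gene, 5′ to 3′, and positions count back from the transcription start. Each is the part of the 250-base window that overlapped no annotated exon, and capitals mark, on either strand, the TATA motif (TATAAA), the CCAAT box and the GC box (GGGCGG). The Col3a1 window lies at chr1:45311288-45311537 on the plus strand, that of Col1a2 at chr6:4505370-4505492 on the plus strand and that of Col18a1 at chr10:77166549-77166780 on the minus strand.
Col3a1: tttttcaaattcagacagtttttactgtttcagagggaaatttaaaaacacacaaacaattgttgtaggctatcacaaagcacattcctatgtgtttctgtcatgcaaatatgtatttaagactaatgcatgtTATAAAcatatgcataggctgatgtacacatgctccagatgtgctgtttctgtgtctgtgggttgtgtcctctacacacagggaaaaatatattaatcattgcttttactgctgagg
Col1a2: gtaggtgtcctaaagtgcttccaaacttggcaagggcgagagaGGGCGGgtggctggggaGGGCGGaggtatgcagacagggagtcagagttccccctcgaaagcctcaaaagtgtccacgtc
Col18a1: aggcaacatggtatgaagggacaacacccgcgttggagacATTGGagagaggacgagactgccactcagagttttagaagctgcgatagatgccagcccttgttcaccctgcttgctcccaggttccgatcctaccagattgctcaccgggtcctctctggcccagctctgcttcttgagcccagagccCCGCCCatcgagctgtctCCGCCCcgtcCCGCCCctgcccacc
Col3a1 held a TATA motif at -117 and neither of the other motifs. In the part shown Col1a2 held the GC box at -205 and -188. The table holds a second Col18a1 start, downstream on chromosome 10, and which start the liver used was not tested. In its upstream window Col18a1 held, on the opposite strand, the CCAAT box at -210 and the GC box at -61, -43 and -33. Over the 38 windows of the 35 collagens in the table, searched on both strands in 250 bases, 13.2% held the TATA motif, 34.2% the CCAAT box and 57.9% the GC box, against 12.4%, 33.8% and 32.7% of all 32851 windows. None of the marked motifs overlaps another in these 3 windows.

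Levels between genes were compared as FPKM, the authors' values per length and depth. CPM are reads scaled to a common library size, used within a gene. In KO iWAT the leading collagen was Col4a1, the common basement membrane chain, at 168 ± 42.5 FPKM (SD, n = 3), ahead of Col3a1 at 125 ± 10.6 FPKM. In WT iWAT the order was turned, with Col3a1 first at 388 ± 277 FPKM, Col1a2 at 221 ± 170 FPKM and Col4a1 at 150 ± 62.8 FPKM. These means have a wide spread over libraries, but the order of Col3a1 and Col4a1 held within each library. Col3a1 was at 249, 707 and 207 FPKM in WT iWAT, against 97.6, 219 and 132 FPKM of Col4a1. In KO iWAT Col3a1 was at 133, 113 and 129 FPKM, against 210, 125 and 167 FPKM of Col4a1. The order was not tested. In eWAT, Col4a1 and Col3a1 had the highest means in both genotypes, at 249 ± 69.8 and 240 ± 17.3 FPKM in KO. In WT they were at 81.0 ± 75.5 and 85.9 ± 98.2 FPKM. They did not lead in WT replicate 2, at 15.2 and 16.7 FPKM. Col1a2, Col18a1 and Col6a1 were at 26.9, 22.5 and 21.2 FPKM in that library. In liver most collagen reads came from Col18a1, which took 68.4% to 83.0% of them in each library. Col18a1, the type XVIII chain whose fragment is endostatin and which hepatocytes are known to make, stood at 189, 144 and 137 FPKM in KO livers and at 179.0, 94.2 and 179 FPKM in WT livers. The next liver collagen, Col4a1, stood at 9.71 ± 2.35 FPKM in KO and at 7.36 ± 3.92 FPKM in WT.

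**Figure D1:**
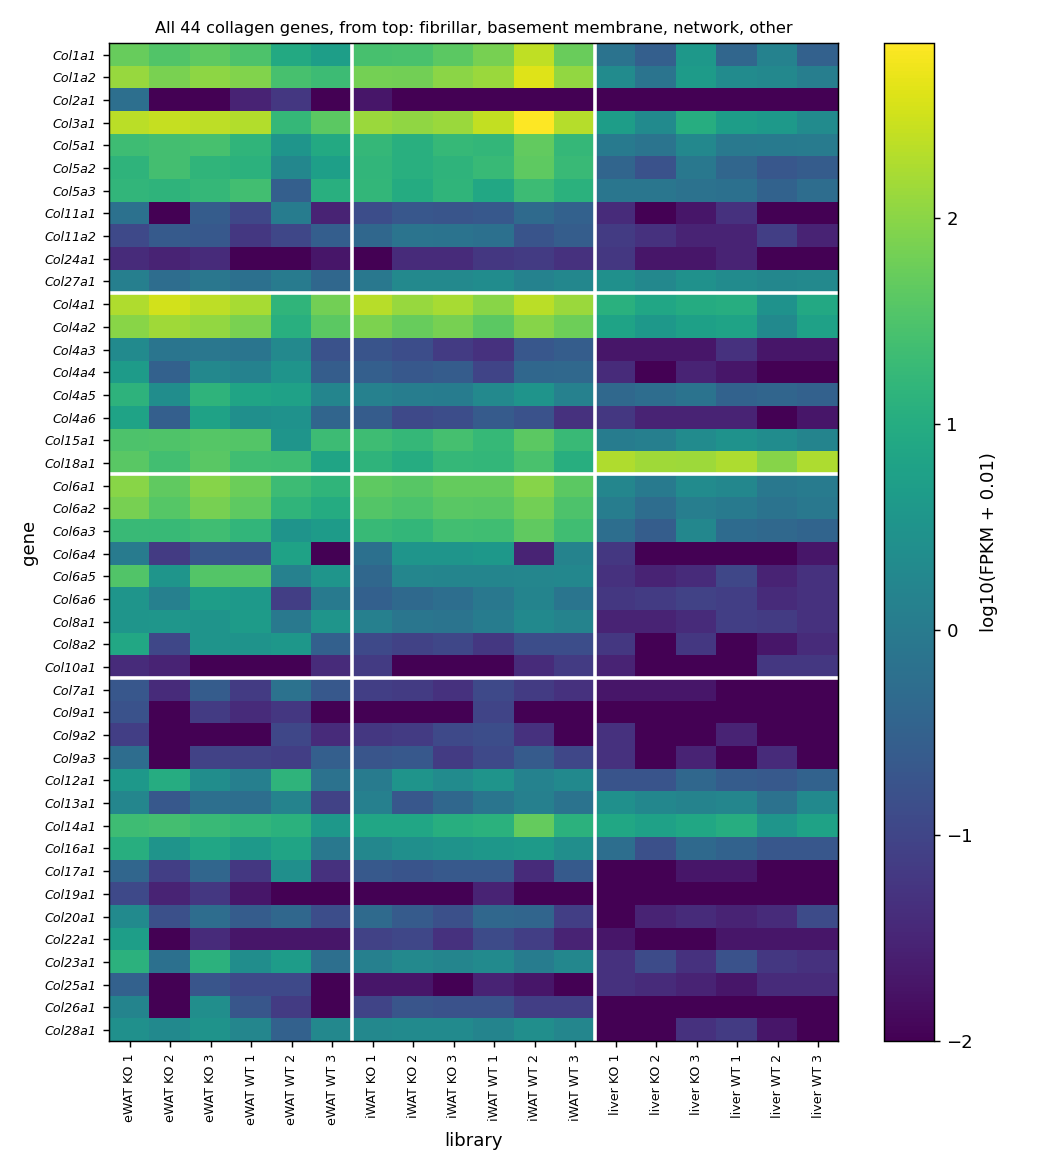
Level of each of the 44 collagen genes (rows, in 4 classes; white lines part classes and tissues) in each of the 18 libraries (columns, KO left of WT in each tissue), as log10(FPKM + 0.01) in colour. The fat libraries share a bright set of type I, III, IV and VI chains, while in liver Col18a1 alone stands out, at 94.2 to 189 FPKM.

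A tail of members was barely expressed. The cartilage collagens Col2a1, Col9a1, Col9a2, Col9a3 and Col10a1, with Col19a1, Col22a1 and Col24a1, passed the filter on low counts in no tissue, and held between 17 reads (Col19a1) and 403 reads (Col22a1) over all 18 libraries together. In the KO to WT comparisons 36 members passed the filter in eWAT, 33 in iWAT and 19 in liver.

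In iWAT the share of reads taken by fibrillar collagens was low in KO. The mean share taken by the basement membrane class, most of it Col4a1 and Col4a2, was level. By gene, 7 of the 8 basement membrane collagens also had a log2 fold change below 0, with a median of -0.47; without WT replicate 2 it was 3 of 8, with a median of 0.048. Fibrillar genes took 0.123%, 0.117% and 0.165% of the reads of KO iWAT libraries, against 0.243%, 0.712% and 0.211% in WT. The groups did not overlap, and WT replicate 2 was far above the other 2. Basement membrane genes took 0.144 ± 0.0279% of reads in KO and 0.143 ± 0.0605% in WT (SD, n = 3 each). By library it was 0.165%, 0.112% and 0.155% in KO and 0.0943%, 0.211% and 0.124% in WT, so the level means rested on WT replicate 2. As a share of collagen reads alone, which does not depend on how libraries are scaled, fibrillar genes made up 35.7%, 40.9% and 41.9% in KO iWAT and 59.0%, 67.1% and 52.9% in WT iWAT. All KO values lay below all WT values. Such shares were not tested, since 3 libraries against 3 allow no exact permutation p below 0.1. In bulk tissue fewer cells of a type and less RNA per cell cannot be told apart.

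**Figure D2:**
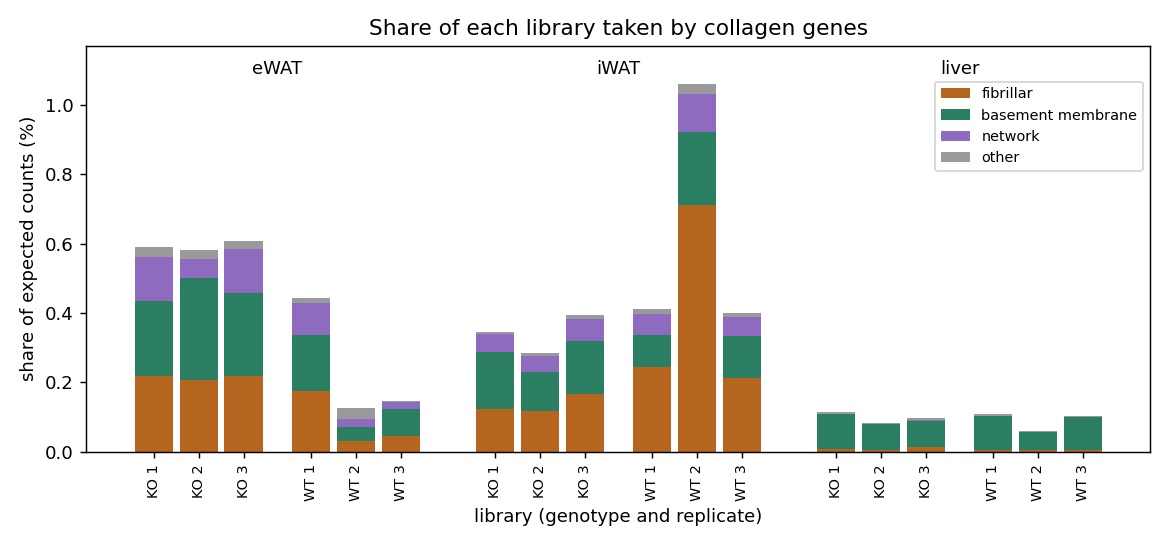
Share of each library's expected counts (%) taken by fibrillar, basement membrane, network and other collagens, stacked, with 1 bar per library. The tallest bar is iWAT WT replicate 2, at 1.06% for all collagens together, and the liver bars all lie at or below 0.114%.

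Gene by gene, no collagen passed an adjusted p of 0.05 in iWAT in edgeR's quasi-likelihood test, DESeq2 or limma, as was the case for all 14226 genes tested in edgeR (0%). At an unadjusted p under 0.05, edgeR had 7 of the 33 collagens lower in KO and 0 higher, against 2.8% and 1.37% of all genes tested. All KO libraries lay below all WT libraries for 8 of 33, against 5.03% of all genes, and above them for 0 of 33, against 4.34%. The 8 were Col1a1, Col1a2, Col3a1, Col5a2, Col4a5, Col6a5, Col6a6 and Col14a1. Without WT replicate 2 there were 9, Col27a1 being added, against 7.94% of all genes; leaving out a library can only add to such a count.

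Type I collagen, the main protein of fibrous tissue, is built from a pair of Col1a1 chains and a Col1a2 chain. Col1a1 was at 173, 153 and 243 CPM in KO iWAT, against 409, 1627 and 343 CPM in WT iWAT. Its log2 fold change was -2.06 ± 0.66 (SE; unadjusted p = 0.0197, adjusted p = 0.9998, edgeR), and -0.99 without WT replicate 2. Col1a2 was at 378, 313 and 512 CPM in KO and at 670.1, 2502.5 and 646 CPM in WT, a log2 fold change of -1.67 ± 0.61, or -0.71 without WT replicate 2. Every KO library lay below every WT library for both chains, and the size of each gap rested on the 1 high WT library.

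Col3a1, the homotrimer of distensible tissues, was at 441, 379.8 and 505 CPM in KO iWAT and at 986, 3082.5 and 851 CPM in WT. Its log2 fold change was -1.89 ± 0.55 (unadjusted p = 0.0132), and -1.06 without WT replicate 2. The 3 KO values sit close together, below all WT values. Type V collagen, which starts type I fibrils and limits their width, had 1 chain with groups apart. Col5a2 was at 107, 67.1 and 91.2 CPM in KO and at 117, 330.4 and 133 CPM in WT, while Col5a1 overlapped, at 83.9, 63.4 and 112 CPM against 94.9, 324 and 115 CPM in WT. The ratio of Col5a1 to Col5a2 reads overlapped between the groups, so a difference between the chains was not shown. Col5a3, a chain found in some type V trimers, averaged 80.8 ± 26.1 CPM in KO and 91.6 ± 49.5 CPM in WT.

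Among the other fibrillar genes Col27a1, a cartilage collagen, was at 5.69 to 10.6 CPM in KO iWAT and at 9.61 to 12.4 CPM in WT, and the groups overlapped. Col11a1 and Col11a2, chains of the minor fibrillar type XI, averaged 1.08 and 3.34 CPM in KO and 2.25 and 1.99 CPM in WT. In all, 8 of the 9 fibrillar genes tested in iWAT had a log2 fold change below 0, with a median of -1.06, against a median of 0.01 over all genes. Without WT replicate 2 it was 7 of 9 and the median was -0.40, and on log2(FPKM + 1) the median was -0.62. Over all classes 28 of 33 collagens lay below 0 and 5 above, while 52% of all genes lay above 0. Their median was -0.56, and -0.29 without WT replicate 2. On log2(FPKM + 1) 10 of 35 lay above 0 and the median was -0.18.

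Outside the fibrils, Col14a1, a collagen that coats fibrils and is typical of fibroblasts, was at 31.3, 31.6 and 52.8 CPM in KO iWAT and at 59.7, 272 and 66.5 CPM in WT. Its log2 fold change was -1.78 ± 0.66, and -0.71 without WT replicate 2. Col6a6 and Col6a5, alternative chains of type VI, also lay lower in every KO library. Col6a6 was at 2.81, 3.49 and 4.60 CPM in KO and at 7.28, 15.4 and 6.98 CPM in WT, with the lowest p of all collagens there (log2 fold change -1.44 ± 0.41, unadjusted p = 0.0120, or -0.97 without WT replicate 2). The main type VI chains Col6a1, Col6a2 and Col6a3 overlapped between groups, with log2 fold changes of -0.61, -0.48 and -0.72 and, without WT replicate 2, of -0.12, -0.01 and -0.12.

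In the basement membrane class the main chains Col4a1 and Col4a2 were level in iWAT. Col4a1 was at 1012, 577 and 802 CPM in KO and at 473, 1261 and 710.4 CPM in WT (log2 fold change -0.03 ± 0.42), and Col4a2 had a log2 fold change of -0.07 ± 0.41. Their sign is not settled, since both came out above 0 without WT replicate 2, at 0.43 and 0.37. Col4a5, a chain of a less widespread type IV network, was the exception. It was at 6.40, 6.38 and 6.29 CPM in KO and at 10.4, 22.3 and 8.88 CPM in WT (log2 fold change -1.12 ± 0.39, unadjusted p = 0.0263, or -0.60 without WT replicate 2). Col15a1 and Col18a1 had log2 fold changes of -0.56 ± 0.46 and -0.51 ± 0.44, and the sign of Col18a1 turned without WT replicate 2, to 0.06.

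**Figure D3:**
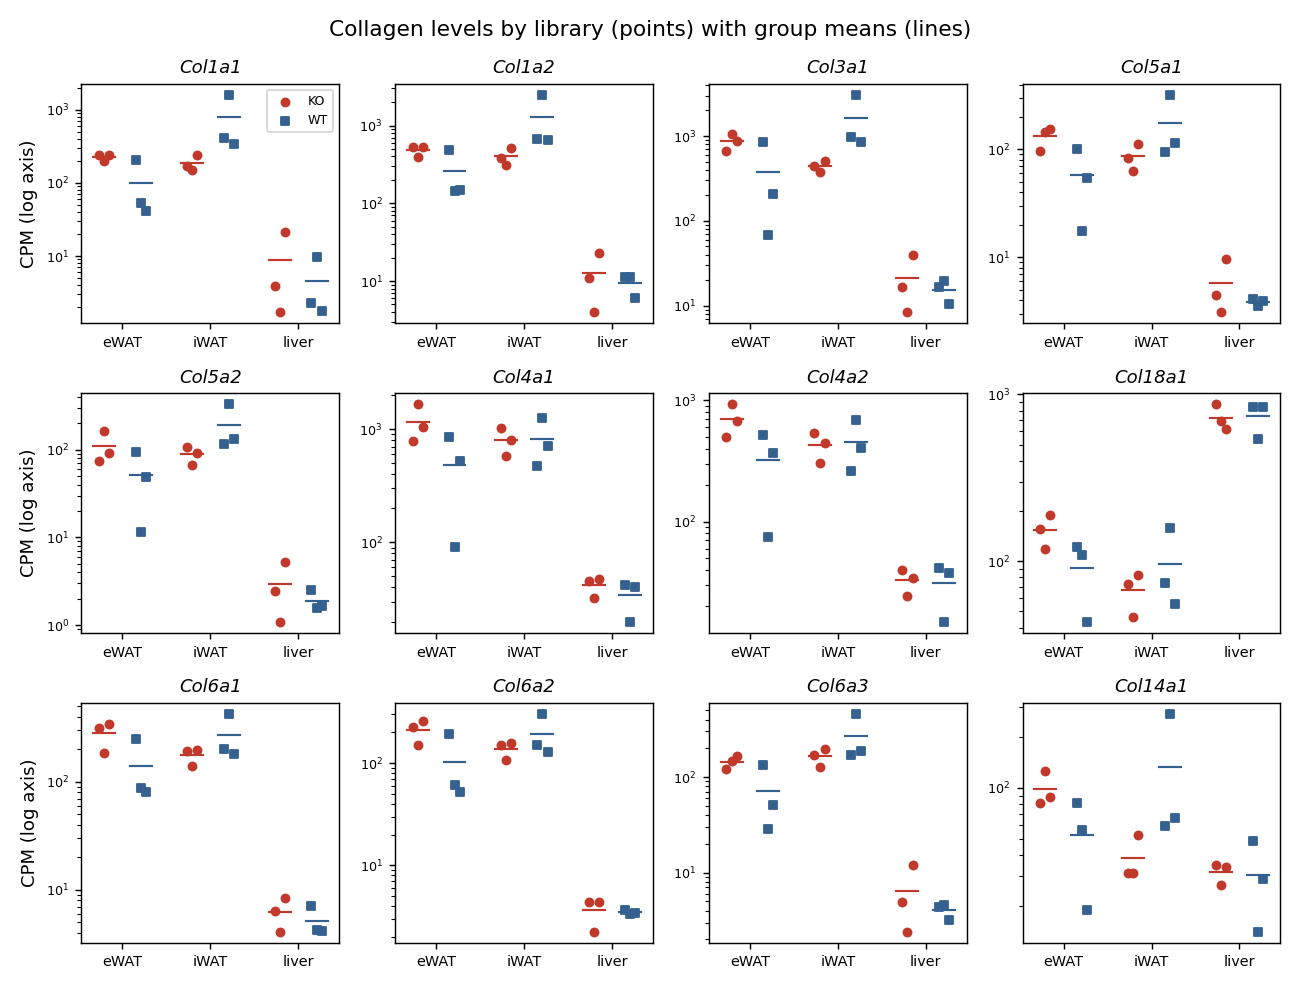
CPM in each library (points, log axis) with group means (lines) of 12 collagens of types I, III, V, IV, XVIII, VI and XIV, KO left of WT within each tissue. Col1a1 and Col3a1 show 3 KO iWAT points below all WT points, and Col18a1 is high in all liver libraries.

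The composition of the mixture was also read from ratios of reads within a library, which need no scaling; 10 ratios were taken in 3 tissues, and the groups were apart in 5 of these 30. The ratios share chains. Each of the 5 with groups apart had an exact permutation p of 0.1, the lowest that 3 libraries against 3 allow. That p is also the share of relabellings that part 3 libraries from 3 in either direction. Col4a1 reads per Col1a1 read were 5.83, 3.78 and 3.30 in KO iWAT and 1.16, 0.775 and 2.07 in WT iWAT. Col1a1 reads per Col1a2 read were 0.459, 0.488 and 0.474 in KO iWAT and 0.610, 0.650 and 0.531 in WT iWAT. All 3 KO values lay below all WT values. Col5a1 reads per Col1a1 read, at 0.483, 0.415 and 0.460 in KO and 0.232, 0.199 and 0.334 in WT, lay higher in KO. Col6a1 reads per Col6a2 read were 1.28 ± 0.0177 in KO iWAT and 1.39 ± 0.0347 in WT iWAT (SD, n = 3 each), also apart. In eWAT the ratio of Col1a1 to Col1a2 lay the other way, at 0.451, 0.514 and 0.455 in KO and 0.420, 0.371 and 0.278 in WT.

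Some lists of cell type markers moved with the iWAT collagens and others the other way. All 5 macrophage markers lay lower in every KO iWAT library, with summed levels of 649.7 to 831 CPM in KO and 950.1 to 1490.5 CPM in WT. Of 7 markers of fibroblasts and adipose progenitors 6 had a log2 fold change below 0, and 2 had groups apart, with sums of 1398 to 2289 CPM in KO and 1814 to 4127 CPM in WT. Over all genes 5.03% lay lower in every KO library. In WT replicates 1 and 3 alone the macrophage sums were 950.1 and 1257 CPM. The fibroblast sums there were 1814 and 2338 CPM, and so overlapped KO. The 6 endothelial markers had a median log2 fold change of -0.15 and the groups overlapped for each one. Mature adipocyte markers lay above 0 in 6 of 7, B cell markers in 4 of 4 and hepatocyte markers in 5 of 5. Smooth muscle and pericyte markers lay below 0 in 4 of 7, Schwann cell markers in 4 of 5 and skeletal muscle markers in 5 of 5. The skeletal muscle and B cell directions rested on WT replicate 2. Skeletal muscle sums were 3.63 to 37.7 CPM in KO, above the 1.73 and 2.41 CPM of WT replicates 1 and 3. B cell sums were 373 to 1098 CPM in KO, against 1204.5 and 506 CPM in WT replicates 1 and 3 and 3.98 CPM in WT replicate 2. The highest fibroblast sum, 4127 CPM, was that of WT replicate 2, the library with skeletal muscle transcripts and the highest fibrillar share. The part of these markers in the collagen result was not tested.

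Genes that act on collagen were taken from 5 lists. Of 14 tested genes of processing and cross-linking 12 lay below 0 in iWAT (median log2 fold change -0.80), as did all 10 of collagen breakdown (median -1.002). The breakdown list holds proteases together with their inhibitors Timp1, Timp2 and Timp3, so its counts give no direction of breakdown. None passed adjustment. Without WT replicate 2 it was 11 of 14 (median -0.34) and 9 of 10 (median -0.54). Loxl2, which cross-links collagen, was at 42.2, 30.9 and 47.5 CPM in KO and at 57.5, 162 and 74.0 CPM in WT. Mmp14, a membrane collagenase, was at 97.1, 96.3 and 115 CPM in KO and at 142, 329 and 150.3 CPM in WT. Bmp1, the enzyme that trims the end of procollagen, averaged 29.1 ± 7.05 CPM in KO and 65.9 ± 34.4 CPM in WT. The list of synthesis and folding had 13 of 18 below 0, with a median of only -0.14, which turned to 0.081 with 8 of 18 below 0 without WT replicate 2. Receptors had 7 of 9 below 0, or 6 of 9 without that library, though the receptor Ddr1 lay higher in every KO library (37.8 ± 7.76 CPM, against 25.1 ± 4.05 CPM in WT). The TGF-beta list was split, with 7 of 13 above 0.

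In eWAT the collagens leaned the other way, with 27 of 36 above 0 in KO (48.5% of all genes) and a median log2 fold change of 0.64, against -0.02 over all genes. None passed an adjusted p of 0.05 (0% of all 14657 genes), 0 had an unadjusted p under 0.05 (2.84% of all genes higher and 2.91% lower), and 0 had groups apart (7.46% higher and 7.54% lower among all genes). On FPKM the split was 35 of 39 above 0, and there all genes shifted up too, by a median of 0.28. All collagens together took 0.591%, 0.581% and 0.608% of reads in KO eWAT and 0.442%, 0.125% and 0.146% in WT. The 3 KO libraries were alike, WT replicate 1 was close to them, and the other 2 WT libraries were low.

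Col1a1 was at 239.95, 202 and 240.2 CPM in KO eWAT and at 205, 52.7 and 41.7 CPM in WT (log2 fold change 1.19 ± 0.65, adjusted p = 0.706, or 0.94 without WT replicate 2). Col3a1 was at 666, 1047 and 874 CPM in KO and at 849, 67.7 and 205 CPM in WT. Col4a1 was at 785, 1652 and 1038 CPM in KO and at 844, 90.2 and 519 CPM in WT (log2 fold change 1.26 ± 0.82, or 0.79 without WT replicate 2). In each of the 3, WT replicate 1 fell inside the KO range, and the range over WT was wider than the gap between means. Col6a1, Col6a2 and Col6a3 had log2 fold changes of 1.02, 1.06 and 1.03, or 0.82, 0.86 and 0.70 without WT replicate 2. With the 3 libraries rich in epididymal or smooth muscle transcripts left out, 1 KO and 2 WT libraries remained, and 16 of 35 collagens lay above 0 with a median of -0.37, the lone KO library being assumed to vary like the WT ones. Fibrillar genes then lay above 0 in 6 of 9, with a median of 0.31.

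A second set of collagens in eWAT divided the libraries across genotype. Col6a5 was at 246, 30.5 and 308 CPM in KO eWAT and at 354, 12.8 and 41.5 CPM in WT. Col4a6 was at 34.3, 1.89 and 38.5 CPM in KO and at 18.8, 19.99 and 3.36 CPM in WT, and Col23a1, a transmembrane collagen, was at 56.5, 3.40 and 58.6 CPM in KO and at 14.8, 27.0 and 4.38 CPM in WT. KO replicates 1 and 3 were high in all 3 genes, KO replicate 2 and WT replicate 3 were low. Col8a2, a short-chain network collagen, followed, at 27.9, 0.432 and 13.1 CPM in KO and 14.8, 16.0 and 1.71 CPM in WT. Beside these, Myh11 was at 1274.5, 48.4 and 1358 CPM in KO and at 129, 265 and 79.8 CPM in WT, and the mesothelial gene Upk3b was at 19.7, 9.34 and 113 CPM in KO and at 91.8, 0.895 and 7.51 CPM in WT. The part of either cell type in these levels was not tested. The member with the highest log2 fold change in eWAT, Col26a1, was low and split the same way, at 3.37, 0 and 6.37 CPM in KO and at 0.567, 0.179 and 0 CPM in WT. The genes of processing and cross-linking lay above 0 in 14 of 14, with a median of 0.90. Those of the breakdown list, inhibitors included, did so in 9 of 9, with a median of 0.59. None passed adjustment. Without WT replicate 2 it was 13 of 14 (median 0.497) and 11 of 11 (median 0.51).

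**Figure D4:**
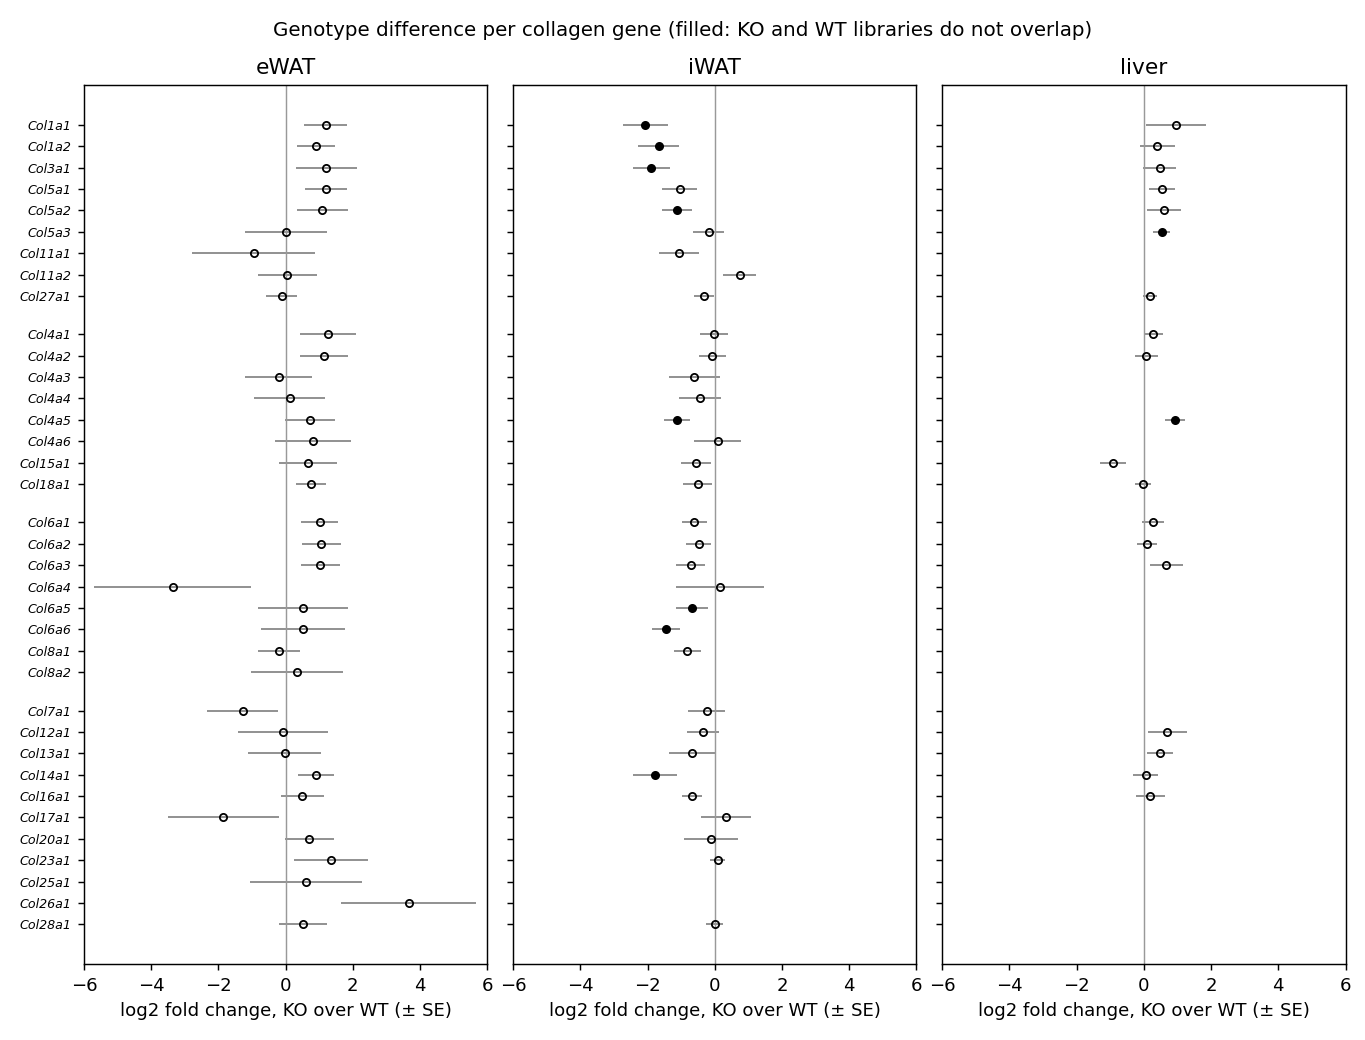
Log2 fold change of KO over WT (± SE, edgeR) for each collagen that passed the filter, by tissue, with classes from top to bottom fibrillar, basement membrane, network and other. Filled points mark genes whose KO and WT libraries do not overlap, 0 in eWAT, 8 in iWAT, all lower, and 2 in liver, both higher.

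In liver 17 of 19 collagens lay above 0 in KO (49.7% of all genes), including all 7 fibrillar genes tested, with a median of 0.40, but this rested on 1 library. None passed an adjusted p of 0.05 (0.0504% of all 11915 genes, with 0.0336% higher and 0.0168% lower). Col1a1 was at 3.85, 1.69 and 20.99 CPM in KO livers and at 2.24, 9.76 and 1.79 CPM in WT livers. Col3a1 was at 16.8, 8.36 and 39.2 CPM in KO and at 16.4, 19.7 and 10.4 CPM in WT. KO replicate 3 was the highest library for both, and the other KO libraries lay within or below the WT range. Without it 9 of 19 collagens and 2 of 7 fibrillar genes lay above 0, and the log2 fold change of Col1a1 was -0.72 in place of 0.96, that of Col3a1 -0.30 in place of 0.47. That library also had the highest fibroblast marker sum of the liver, 218 CPM, against 161 and 178 CPM in the other KO livers and 138 to 159 CPM in WT livers. Most of the 218 CPM was Dcn, at 112 CPM, and Dpp4, at 80.5 CPM. Pdgfra and Lum were only slightly higher than in KO replicate 1, at 6.29 against 5.77 CPM and 6.69 against 6.06 CPM. Whether more fibroblasts were present in KO replicate 3 was not tested. The stellate cell sum was 68.5 CPM there, within the range of the other 5 livers. All 6 endothelial markers and all 6 fibroblast markers tested also had a log2 fold change above 0, and WT replicate 2 had the lowest sum of both. Without WT replicate 2, 16 of 20 collagens lay above 0. Their part in the result was not tested.

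With all 6 livers, 2 collagens lay higher in every KO library and 0 lower, against 5.98% and 6.97% of all genes tested. At an unadjusted p under 0.05 it was 1 higher and 1 lower, Col4a5 and Col15a1, against 2.87% and 3.17%. Col4a5 was at 2.61, 2.97 and 3.88 CPM in KO and at 2.02, 1.68 and 1.27 CPM in WT (log2 fold change 0.92 ± 0.30, unadjusted p = 0.0133, adjusted p = 0.628), and Col5a3 was at 4.68, 4.89 and 3.83 CPM in KO and at 3.70, 2.32 and 3.24 CPM in WT. Without KO replicate 3 it was 3 higher, with Col13a1, and 1 lower, Col15a1, against 9.58% and 10.3% of all genes. Col15a1, a basement membrane collagen of vessels, was at 4.88, 3.004 and 8.41 CPM in KO livers and at 14.4, 8.66 and 7.47 CPM in WT livers (log2 fold change -0.91 ± 0.38, unadjusted p = 0.0402), with 1 KO value inside the WT range. Col18a1 was at 871, 691 and 616 CPM in KO and at 842, 543 and 837 CPM in WT, a log2 fold change of -0.03 ± 0.23, and took 77.2 ± 7.72% of collagen reads in KO and 80.3 ± 2.14% in WT.

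Of the lists, TGF-beta signalling lay above 0 in 11 of 12 in liver, with a median of only 0.18, but in 6 of 13 without WT replicate 2. Ccn2, the connective tissue growth factor, was at 8.58, 9.78 and 12.0 CPM in KO livers and at 3.01, 3.49 and 3.48 CPM in WT livers (log2 fold change 1.61 ± 0.22, adjusted p = 0.0623). It lay above WT in all 3 KO libraries and did not pass the threshold. Synthesis and folding had 8 of 17 above 0, processing and cross-linking 4 of 11, and breakdown 3 of 8.

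Whether the genotype difference itself varied between tissues was tested over all 18 libraries. No collagen passed adjustment in any of the 3 contrasts (0% of 15717 genes in each). In the contrast of the genotype effect of iWAT minus that of eWAT, 12 of 38 collagens had an unadjusted p under 0.05 on the lower side, against 3.75% of all genes, and 0 on the higher side, against 2.06%. They included Col14a1 (-2.71 ± 0.86, adjusted p = 0.778), Col3a1 (-3.12 ± 1.07), Col1a1 (-3.28 ± 1.28) and Col1a2 (-2.59 ± 0.92), with adjusted p of 0.778 or higher. The median of the 9 fibrillar genes was -2.25, and was -1.48 without iWAT WT replicate 2 and -1.84 without eWAT WT replicate 2. In liver minus iWAT, 4 of 38 lay on the higher side at an unadjusted p under 0.05 (1.32% of all genes) and 0 on the lower side (1.31%), the 4 being Col1a1, Col1a2, Col3a1 and Col4a5. In liver minus eWAT it was 1 on the lower side (3.35% of all genes) and 0 on the higher side (3.02%). This was Col22a1, which had 10.99 CPM in eWAT KO replicate 1 and 0 to 0.268 CPM in the other 5 eWAT libraries.

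Between tissues the differences were large. In WT libraries 25 of 27 collagens tested differed between liver and iWAT (62.1% of all genes), with 22 lower in liver (35.1% of all genes) and 3 higher (27%). Of the 27, 19 passed the filter in both tissues and 8 through iWAT alone. For those 8 a lower value in liver was favoured by the filter in advance, and the 22 lower include such members. Col1a1 fell by 6.07 ± 0.99 on the log2 scale in liver (adjusted p = 0.0017), Col3a1 by 5.35 ± 0.63, Col6a2 by 4.42 ± 0.38 and Col4a1 by 3.20 ± 0.47. Col14a1 (-0.73 ± 0.68, adjusted p = 0.374) and Col11a2 (-1.59, adjusted p = 0.0926) did not pass. Col18a1 rose by 4.32 ± 0.49 (adjusted p = 3.3e-04), with 94.2 to 179.0 FPKM in WT livers against 16.1, 28.2 and 10.9 FPKM in WT iWAT. Col27a1 and Col13a1, a transmembrane collagen, were also called higher, at 1.63 ± 0.22 and 1.96 ± 0.51, but on FPKM neither passed. Col27a1 was at 2.13, 1.75 and 1.94 FPKM in WT liver and at 2.29, 1.38 and 1.71 FPKM in WT iWAT, so the libraries overlapped on that scale. The call of Col13a1 also ended without iWAT WT replicate 3, liver WT replicate 1 or liver WT replicate 3 (adjusted p of 0.05061, 0.0590 and 0.0610). The median of all genes was -0.22 in counts and -0.99 to -1.53 on FPKM, so lower values in liver are to be read relative to that shift.

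Between the fat depots of WT mice edgeR called 0 of 34 collagens (0% of all 14006 genes), with 4 higher and 6 lower at an unadjusted p under 0.05 (8.25% and 6.34% of all genes), while DESeq2 called 6. The groups were apart for 6 collagens higher in iWAT (12.3% of all genes) and 2 lower (9.09%). Col1a1 had a log2 difference of 2.99 ± 0.94 for iWAT over eWAT and Col27a1 of 1.18 ± 0.37, while Col8a2 and Col4a6 had -4.53 ± 0.99 and -3.76 ± 0.93. Without eWAT WT replicate 2, the library with epididymal transcripts, the 4 differences were 2.69, 1.47, -4.13 and -3.42, and without iWAT WT replicate 2 they were 1.94, 1.28, -4.77 and -3.89. Of the 34 collagens 24 passed the filter in both depots, 3 through iWAT alone, 5 through eWAT alone and 2 through neither alone. In WT iWAT Col8a2 had only 4, 15 and 11 reads and Col4a6 29, 30 and 6. Both passed through eWAT, so their lower values in iWAT were favoured by the filter.

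The 6 type IV chains lie as 3 pairs of genes read away from each other. The starts of Col4a1 and Col4a2 on chromosome 8 are 21 bases apart and the genes overlap by 22 bases, those of Col4a4 and Col4a3 on chromosome 1 are 72 bases apart, and those of Col4a6 and Col4a5 on chromosome X are 1309 bases apart. Reads of Col4a1 per read of Col4a2 stayed between 1.77 and 1.88 over the 6 iWAT libraries, while Col4a1 itself ranged 2.66-fold. In eWAT the ratio ran from 1.199 to 1.78 while Col4a1 ranged 18.3-fold, and in liver from 1.03 to 1.37. Col4a4 reads per Col4a3 read ran from 1.78 to 2.63 in eWAT while Col4a4 ranged 11.7-fold. The ratio ran from 1.9 to 5.11 in iWAT, where both chains were low, and in liver a few reads gave 0 to 3. On FPKM the eWAT pairing was looser. Col4a4 was at 0.31 FPKM and Col4a3 at 0.75 FPKM in KO replicate 2, while Col4a4 was the higher chain in every other eWAT library. The X-linked pair varied more in both depots, as Col4a5 reads per Col4a6 read spanned 1.82 to 8.09 over the eWAT libraries and 3.64 to 28.8 over those of iWAT. Col4a6 had only 47, 13 and 16 reads in KO iWAT and 29, 30 and 6 in WT iWAT, so the iWAT ratios are imprecise. The highest eWAT ratio rested on 35 Col4a6 reads. Chain ratios are in reads, so they also hold the difference in transcript length, and the points of a tissue share depth and tissue content. Reads at the overlap of Col4a1 and Col4a2 cannot be assigned by strand, as no source used here gives the strandedness of the kit.

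**Figure D5:**
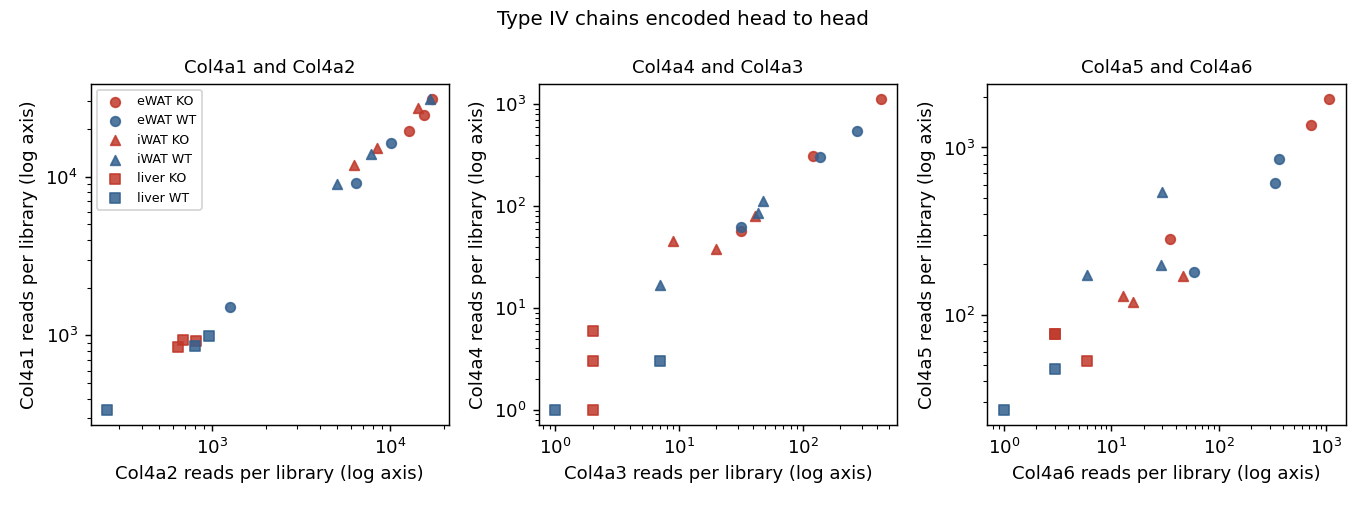
Expected counts per library (log axes) of the type IV chains encoded as neighbouring pairs, with colour for genotype and symbol for tissue; libraries with 0 reads of a chain are not drawn. Col4a1 and Col4a2 fall along a narrow line, as do Col4a4 and Col4a3 in eWAT, while Col4a5 and Col4a6 scatter, with Col4a6 at 6 to 47 reads in iWAT.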

How the data were processed

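RNA was extracted with Trizol, enriched with oligo(dT) and sequenced on a NovaSeq6000, per the labels' protocols. RSEM, edgeR, DESeq2, StringTie 1.3.1, HISAT2, Bowtie2 2.2.8, fastp 0.18.0 and the build mm10 are listed, in no order, per the submitters' processing notes. For every gene and library the authors deposited the FPKM and the expected count; 8.33% of the deposited expected counts were not whole (tolerance 0.01). Of 22298 Ensembl identifiers 22255 matched GENCODE M21 and 43 did not. Here expected counts were rounded, filtered (filterByExpr, minimum count 10, total 15), TMM-scaled and tested over all genes of a tissue in edgeR 4.0.16 (R 4.3.3; quasi-likelihood, robust), with p-values adjusted after Benjamini and Hochberg and called under 0.05. Differences between genotype effects were fitted on 18 libraries, and tissue contrasts on the 6 WT libraries. Values in CPM are TMM-scaled within a tissue; overlap of groups between tissues was judged on CPM scaled over all 18 libraries. The KO to WT fit of each tissue and the 2 tissue contrasts were tried on simulated counts. The contrasts of genotype effects, the ratios and the shares were not. Of simulated 4-fold changes 0% were recovered in eWAT, 48.6% in iWAT and 98.7% in liver. Of 2-fold changes it was 0%, 1.61% and 58.9%. The WT iWAT to eWAT contrast recovered 0% even of 8-fold changes. The liver run had 26 false calls. A collagen not called in fat may therefore still differ. Alternatives were median-of-ratios scaling, no filter, DESeq2 1.42.0, limma 3.58.1 on log2(FPKM + 1) and log2(FPKM + 0.1) with a mean FPKM of at least 0.1, a replicate block, a fit of 18 libraries and leaving out libraries.

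The members and gene lists were chosen with earlier results of these data known. Genes named were collagens past the threshold, with groups apart or of the highest FPKM in their class, partner chains, and up to 3 genes per list in order of p; others were chosen after their values were seen, as were the read ratios and shares.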

Additional observations from a re-analysis of the deposited data

Results flagged for a closer look

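Col4a5 stood out because its 3 KO libraries lay on opposite sides of the WT libraries in 2 tissues. It was lower in all 3 KO iWAT libraries (6.29 to 6.40 CPM, against 8.88 to 22.3 CPM in WT) and higher in all 3 KO livers (2.61 to 3.88 CPM, against 1.27 to 2.02 CPM in WT). The genotype effect of liver minus that of iWAT was 2.03 ± 0.80 on the log2 scale (unadjusted p = 0.0224, adjusted p = 0.99994, edgeR), and so did not pass. It ranged from 1.54 to 2.33 over the fits that left out 1 library each, with the lowest value without iWAT WT replicate 2.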

How the results depend on the processing

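The numbers of collagens called kept within 1.5 times under every alternative run, except that DESeq2 called 6 between WT iWAT and eWAT. The alternatives were scaling, filter, tool, FPKM, replicate block, the fit of all 18 libraries (KO to WT only) and leaving out libraries. The count of collagens above 0 moved to 16 in eWAT without the 3 libraries rich in epididymal or smooth muscle transcripts, an alternative chosen after seeing the data. In liver the count moved to 28 without a filter and in DESeq2 (of 40 members) and to 26 in the fit of 18 libraries (of 38); leaving out 1 library gave 9 to 19. Signs turned in iWAT for Col4a1 (0.21 with either FPKM pseudocount, 0.054 with the replicate block) and Col4a2 (0.12 and 0.12 on FPKM, 0.012 with the block). With 1 library left out, Col4a1 ranged from -0.31 to 0.43, Col4a2 from -0.35 to 0.37 and Col18a1 from -0.77 to 0.059. In liver Col18a1 turned to 0.10 on FPKM with either pseudocount. With 1 liver library left out, the log2 fold changes ranged for Col1a1 from -0.72 to 2.11, Col1a2 from -0.35 to 0.84, Col3a1 from -0.30 to 0.86, Col5a1 from -0.048 to 0.86, Col5a2 from -0.14 to 1.01, Col4a2 from -0.26 to 0.33, Col18a1 from -0.21 to 0.077, Col6a2 from -0.065 to 0.36, Col6a3 from -0.15 to 1.07 and Col14a1 from -0.29 to 0.56. Deviations from the group means were also correlated between same-numbered libraries. For KO and WT libraries the correlations ran from -0.77 to 0.20, and for libraries of 1 genotype in 2 tissues from -0.25 to 0.19. The labels do not say whether same-numbered libraries share a mouse, and these correlations cannot settle it. The replicate block left 0 collagens called in each KO to WT comparison, with 34 of 36 above 0 in eWAT, and the count over all liver genes went to 39, against 6. On FPKM the median of all genes moved by up to 0.40 in eWAT. The causes were not tested. Low members, of under 1 CPM, are limited by depth.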
